A study of Homo sapiens with 4 samples.

Results

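The regions described here are stretches of intergenic DNA at which the transcription factor IRF3 was enriched, 10 to 100 kb away from the nearest protein-coding gene. They number 4618 of the 32246 regions in which both IRF3 ChIP replicates had a peak (14.3%, exact 95% interval 13.9 to 14.7%). They were chosen from the peak lists by position. The summit, the point of highest signal in the stronger of the overlapping peaks, had to lie outside every protein-coding gene span, 10 to 100 kb from the nearest end of such a gene, and over 1 kb from every end of a long non-coding RNA (lncRNA) gene. They are called distal regions below. Intergenic refers to protein-coding genes, since 1034 of the distal regions (22.4%, exact 95% interval 21.2 to 23.6%) overlapped the span of an lncRNA gene. The remaining shared regions lay inside protein-coding genes (11998), within 1 kb of a gene end (9158), over 100 kb from any gene (3603), at 1 to 10 kb (2248) or at lncRNA ends (621).

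IRF3 ChIP-seq was carried out in MM1.S, an established human line of multiple myeloma cells, which are malignant antibody-secreting plasma cells. The cells were grown without any treatment and fixed with formaldehyde. The series has 2 IRF3 ChIP libraries and 2 input libraries of sheared chromatin, numbered alike, and all of them share this cell line and state. There is no group with IRF3 activated or removed. The labels do not state whether the replicates were grown apart, and differences between them may therefore be technical.

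IRF3 is a transcription factor that rests in an inactive form in the cytoplasm until sensors of foreign or misplaced nucleic acid lead to its phosphorylation, after which it pairs, enters the nucleus and switches on interferon beta and other antiviral genes. The IRF family binds repeats of the letters GAAA, as found in interferon-stimulated response elements, and some family members bind next to ETS or AP-1 factors on composite elements. Plasma cells depend on another family member, IRF4, together with the transcription factors PRDM1 and XBP1. DNA far from genes can hold enhancers, which are short stretches that bind transcription factors and act on a promoter at a distance.

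No sequence of the distal regions as such was used here, but 21 RefSeq start windows of lncRNA genes, from 250 bases before to 50 bases after an annotated start, lay at least in part within 20 distal regions. They are a few cases and were not shown to represent the other distal regions. The 5 below were chosen for a strong region or for a summit close to the start. The 5 starts lie inside the span of their lncRNA gene, over 1 kb from both of its ends, so they do not conflict with the rule on lncRNA ends. Each is printed 5′ to 3′ on the strand of its gene, from RefSeq on GRCh38.p14. Capitals mark matches on either strand to 4 motifs, which may overlap. The interferon-stimulated response element core is GAAA, any 2 bases, then GAAA. The ETS-IRF composite is GGAA, any 2 bases, then GAAA, and its reversed order is GAAA, any 2 bases, then GGAA. The AP-1 site is TGANTCA, where N is any base.
MALAT1, chr11:65498795-65499094, plus strand: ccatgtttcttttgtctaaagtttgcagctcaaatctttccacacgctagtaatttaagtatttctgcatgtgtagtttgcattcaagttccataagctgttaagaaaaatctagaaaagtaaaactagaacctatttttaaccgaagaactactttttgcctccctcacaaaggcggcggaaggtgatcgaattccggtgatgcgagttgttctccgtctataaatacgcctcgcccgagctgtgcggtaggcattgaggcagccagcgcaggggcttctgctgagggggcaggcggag
LOC105378536, chr10:124149809-124150108, minus strand: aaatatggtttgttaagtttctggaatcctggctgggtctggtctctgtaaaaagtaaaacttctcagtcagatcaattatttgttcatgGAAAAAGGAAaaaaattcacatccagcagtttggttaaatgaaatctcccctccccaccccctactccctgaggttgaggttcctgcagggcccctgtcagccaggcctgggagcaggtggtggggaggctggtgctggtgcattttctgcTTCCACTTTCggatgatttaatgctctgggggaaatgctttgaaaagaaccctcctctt
LOC105374382, chr2:28359405-28359704, plus strand: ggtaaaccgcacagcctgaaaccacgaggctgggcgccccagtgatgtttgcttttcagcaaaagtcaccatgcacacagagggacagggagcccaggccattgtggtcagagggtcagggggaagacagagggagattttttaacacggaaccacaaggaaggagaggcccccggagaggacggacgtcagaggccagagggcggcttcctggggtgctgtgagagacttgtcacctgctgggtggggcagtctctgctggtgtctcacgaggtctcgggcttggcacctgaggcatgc
LINC02608, chr1:212234687-212234986, minus strand: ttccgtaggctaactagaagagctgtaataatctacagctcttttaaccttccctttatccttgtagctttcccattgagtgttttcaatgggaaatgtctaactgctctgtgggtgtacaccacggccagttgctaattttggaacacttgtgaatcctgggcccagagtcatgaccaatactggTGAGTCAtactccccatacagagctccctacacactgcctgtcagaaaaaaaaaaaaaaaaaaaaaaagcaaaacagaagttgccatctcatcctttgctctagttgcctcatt
LOC105372853, chr22:18056778-18057077, plus strand: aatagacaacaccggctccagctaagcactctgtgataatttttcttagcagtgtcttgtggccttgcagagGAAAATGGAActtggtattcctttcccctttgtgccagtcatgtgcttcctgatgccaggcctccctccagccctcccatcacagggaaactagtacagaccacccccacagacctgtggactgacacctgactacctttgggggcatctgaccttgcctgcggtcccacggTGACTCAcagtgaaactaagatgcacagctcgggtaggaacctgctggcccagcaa

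The MALAT1 window, whose start lay 96 bp from the summit, belongs to the third-ranked distal region and held no match to any of these motifs. In the window of LOC105378536, with the start 89 bp from the summit, the reversed ETS-IRF order matched at 2 places. The region over it had a fold enrichment over input of 7.85 in replicate 1 and 8.81 in replicate 2. LOC105374382 had its start 187 bp from the summit, no match, and values of 6.18 and 9.65. LINC02608 had its start 9 bp from the summit and 1 AP-1 match, with 4.82 and 6.83. LOC105372853 had its start 15 bp from the summit, 1 match to the reversed ETS-IRF order and 1 to AP-1, with 5.08 and 5.40.

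Few of the 21 windows held an IRF-type motif. The response element core was present in 1, the ETS-IRF composite in 1, its reversed order in 3 and TGANTCA in 4. TGANTCA followed directly by GAAA, an AP-1 and IRF composite, was present in 0 of them. Among all 35116 RefSeq start windows of the same length, the response element core was present in 3.57%, the ETS-IRF composite in 2.82%, its reversed order in 2.77%, TGANTCA in 7.71% and TGANTCA with GAAA in 0.16%. The AP-1 letters occurred in 10.4% of the 12917 lncRNA windows. Of the other motifs searched on both strands, the E-box CANNTG was in 19 of the 21 (68.7% of all windows), its form CAGCTG in 2 (17.9%), the ETS site GGAAGT in 6 (22.8%), GATAAG in 3 (6.36%) and the cyclic AMP response element TGACGTCA in 2 (1.85%), while the MEF2, NF-kB and CTCF motifs were in 0. The median GC content was 47.3% in the 21 windows, 50% in all lncRNA windows and 58.7% in all windows. A match describes the letters in the window and is not a binding site. The 21 windows are too few to set a share against those of all windows.

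MicroRNA genes were covered by 5 distal regions (0.108%), against 0.208% of regions inside genes and 0.111% of those over 100 kb away. Of these 5, 3 are shown by their mature sequences from RefSeq, with the seed (bases 2 to 8) in capitals. MIR155 is a microRNA gene active in B lymphocytes, and MIR9-1 and MIR9-2 give the same mature products.
miR-155-5p: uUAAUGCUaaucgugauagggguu
miR-155-3p: cUCCUACAuauuagcauuaaca
miR-9-5p: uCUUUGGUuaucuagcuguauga
miR-9-3p: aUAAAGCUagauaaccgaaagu

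The region over MIR155 (chr21:25572834-25574421) had a fold enrichment of 5.14 in replicate 1 and 6.91 in replicate 2, and its summit lay 21 bp before the first base of miR-155-5p. It sat within the host gene MIR155HG, 11.7 kb from the far end of MRPL39. The regions over MIR9-1 and MIR9-2 were weak, with 2.80 and 3.10 at the first and 2.47 and 3.62 at the second. MIR6077 (5.73 and 5.36) and MIR4278 (4.27 and 5.84) made up the 5.

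Distal regions were moderate peaks. Fold enrichment, the authors' own ratio of ChIP signal to local input background at the summit of each peak, ran from 1.57 to 50.1 in replicate 1, with a median of 4.01 and quartiles of 3.13 and 5.31. In replicate 2 it ran from 1.74 to 127, with a median of 4.27 and quartiles of 3.33 and 5.78. Peaks chose the regions, so these values are a description and carry no test. Regions at gene ends had medians of 5.34 and 8.04. Regions inside genes had 4.01 and 4.30, and those over 100 kb away had 4.01 and 4.09, both nearly the same as the distal regions.

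A fold enrichment of at least 5 in both replicates, called strong here, was reached by 951 distal regions (20.6%, exact 95% interval 19.4 to 21.8%). Among all shared regions that share was 30%, at gene ends 53.2%, inside genes 21.2% and over 100 kb away 18.5%. The interval of the distal regions thus included the share inside genes and lay far below that of gene ends. Regions were also ranked by the worse of their ranks in the 2 replicates, and 174 distal regions (3.77%) were in the strongest 10% of all shared regions, against 10% of all by construction. The median length was 652 bp, from 268 to 11889 bp.

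**Figure D1:**
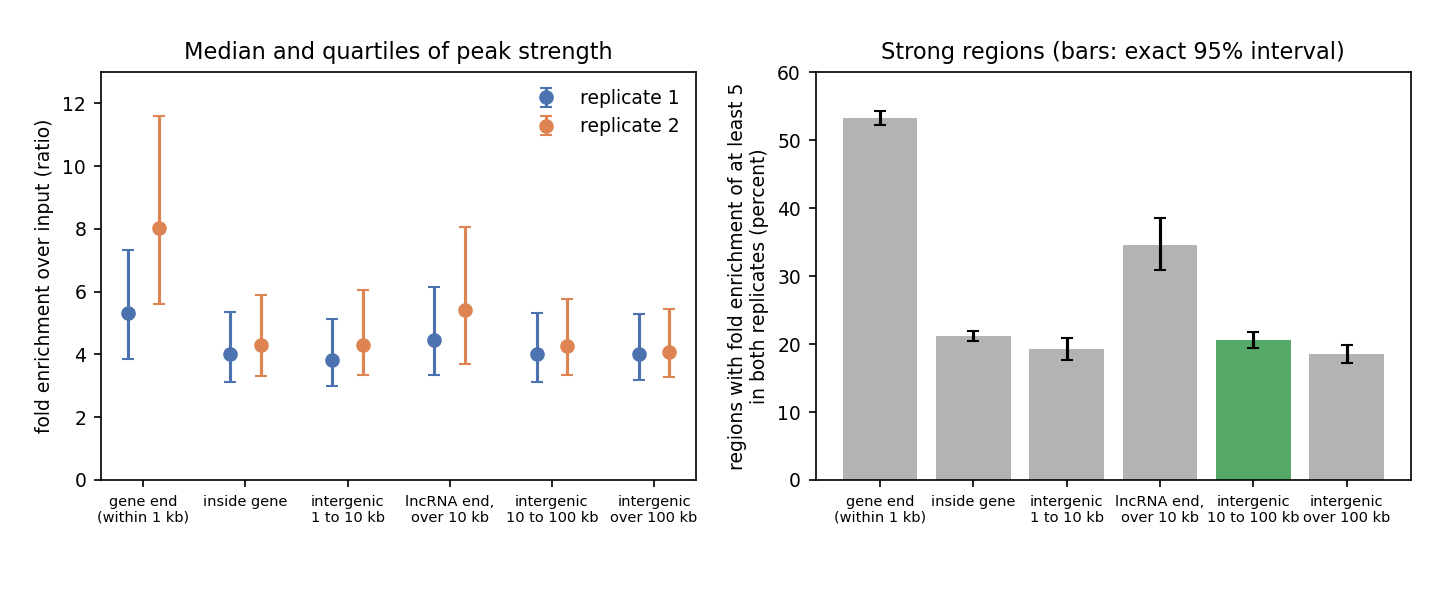
Left, median fold enrichment over input (points) with quartiles (bars) in each ChIP replicate for the 6 location classes of shared regions; right, percent of regions in each class with a fold enrichment of at least 5 in both replicates, with exact 95% intervals. Distal regions (green, 20.6%) sit beside regions inside genes (21.2%) and well below gene ends (53.2%).

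In most distal regions both replicates placed the summits alike. The summits lay a median of 51 bp apart, and in 76.7% of distal regions they lay within 100 bp of each other, a share of 76.9% over all shared regions. Across the 4618 distal regions the fold enrichment of replicate 1 and that of replicate 2 had a Spearman correlation of 0.578 and a Pearson correlation of 0.648 on the log2 scale, given as a description, since the regions share their libraries. Replicate 2 had the higher value in 58.5% of distal regions, against 68.2% of all shared regions and 88.9% of those at gene ends. Regions with a peak in 1 replicate alone lay in the same distance range in 1597 of 8164 cases for replicate 1 (19.6%) and 1484 of 8679 cases for replicate 2 (17.1%). Their median fold enrichments were 3.19 and 3.21.

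At the inner limit, the 3 regions just inside 10 kb were near SLC9A8, OLR1 and MEX3C at 10.0 kb, with fold enrichments of 5.88 and 5.44, 4.68 and 5.79, and 4.72 and 7.89 in replicates 1 and 2. The 3 just outside it, near TADA2B, NHLRC3 and GATD3, had 5.81 and 8.19, 7.43 and 3.35, and 6.91 and 8.14. At the outer limit, the 3 just inside 100 kb were near CTNNA2, LIPC and TMTC3, with 4.44 and 4.43, 4.32 and 4.72, and 4.04 and 9.49. Those just beyond it, near KCNG1, FARS2 and PRSS58, had 3.41 and 4.003, 2.52 and 2.67, and 1.87 and 2.26.

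Distal regions thinned out gradually with distance from genes. There were 1703 at 10 to 25 kb, 1454 at 25 to 50 kb, 876 at 50 to 75 kb and 585 at 75 to 100 kb. The amount of intergenic DNA also differs between these distances, so the counts were divided by the length of DNA that lies outside protein-coding genes at the same distance from their ends. The density was 8.87 regions per Mb at 10 to 25 kb, 7.62 at 25 to 50 kb, 7.05 at 50 to 75 kb and 6.23 at 75 to 100 kb. Over the whole 601 Mb it was 7.69 per Mb. Strength hardly moved with distance, with strong regions making up 20.3%, 21.1%, 21.5% and 18.8% of the 4 distance classes, whose intervals overlap.

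**Figure D2:**
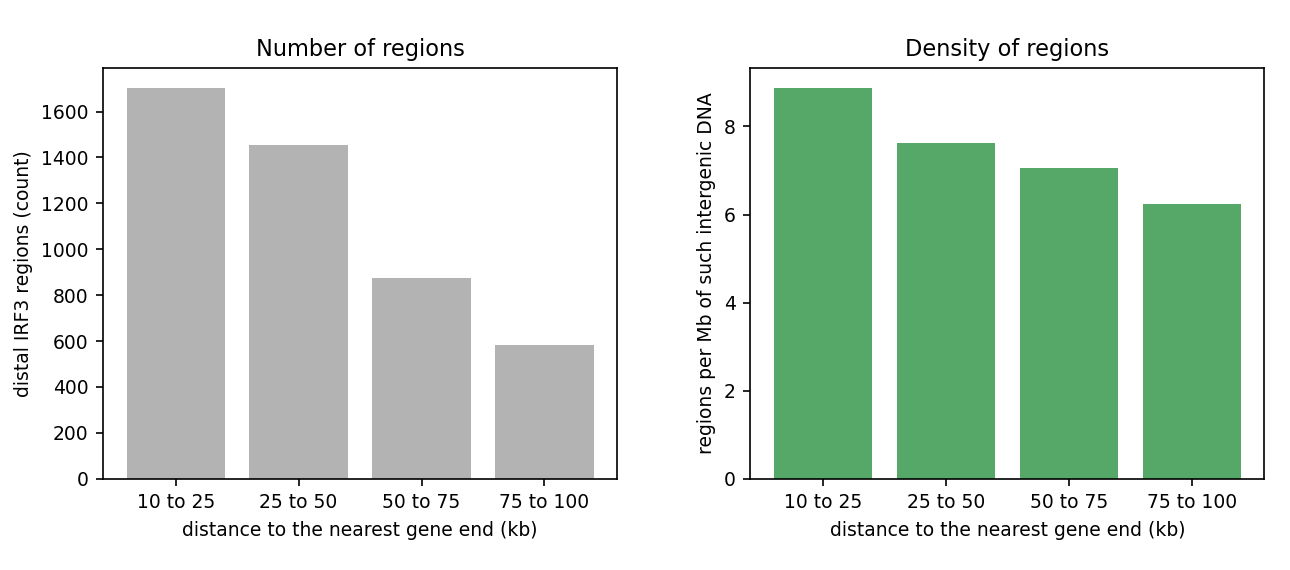
Number of distal regions (left) and their number per Mb of DNA at the same distance outside protein-coding genes (right) in 4 classes of distance to the nearest gene end (kb). The count falls from 1703 to 585 and the density from 8.87 to 6.23 regions per Mb.

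Distal regions were as dense before the starts of genes as beyond their far ends. The nearest end was the start of the gene in 2011 of the 3693 distal regions whose nearest gene had a strand in the RefSeq start windows (54.5%, exact 95% interval 52.8 to 56.1%). Of the DNA at that distance, 54.5% also lay nearest to a start. The density was 7.80 per Mb on the start side and 7.81 per Mb on the far side. Strong regions were 19.1% of the first and 22.2% of the second.

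The density differed between chromosomes. It was highest on chromosome 22, with 106 distal regions and 14.9 per Mb, followed by chromosome 17 (10.1 per Mb) and chromosome 20 (9.67). Chromosome Y aside, it was lowest on the X chromosome, with 144 regions and 3.56 per Mb, and on chromosome 19 (39 regions, 4.24 per Mb), a chromosome dense with genes. Chromosome Y had 0 distal regions and 1 shared region. Of the 106 regions on chromosome 22, 13 overlapped segments of the immunoglobulin lambda locus.

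Many of the strongest distal regions lay on genes of small nucleolar or small nuclear RNAs. The 20 highest-ranked ran from 12.1 to 50.1 in replicate 1 and from 20.4 to 127 in replicate 2. Of these 20, 12 overlapped a small RNA gene, compared with 15 of the 100 highest-ranked. The first was the region over SNORD3A (chr17:19187833-19188444), a copy of the U3 small nucleolar RNA that guides ribosomal RNA processing, with 46.2 in replicate 1 and 127 in replicate 2. Nearby copies SNORD3B-1 (36.8 and 121) and SNORD3D (50.1 and 30.4) were in the fourth and the eighth place. SNORD3D was higher in replicate 1 and the others in replicate 2, so the fold enrichments of the replicates did not order the copies alike. The pileup, a count of the fragments stacked at the summit, did order them alike. In replicates 1 and 2 it was 1454 and 1056 at SNORD3B-1, 935 and 810 at SNORD3A, and 240 and 161 at SNORD3D.

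Spliceosomal RNA genes made up most of the rest. U1 small nuclear RNA, which recognises the 5′ splice site, was represented among the 20 by RNU1-1 (29.5 and 49.2), RNVU1-31 (23.9 and 42.9), RNVU1-7 (16.9 and 35.5), RNVU1-8 (32.1 and 29.1), RNVU1-26 (29.8 and 28.3) and RNU1-2 (15.95 and 24.2), all on chromosome 1. U5 small nuclear RNA, at the centre of the spliceosome, was represented by RNU5B-1 on chromosome 15 (22.8 and 39.9) and RNU5E-1 on chromosome 1 (21.2 and 30.1). The replicate summits of the RNU5E-1 region lay 1535 bp apart. That of replicate 2 was 39 bp from the gene, so the 21.2 of replicate 1 was measured elsewhere in the region. Regions over snRNA genes numbered 11 in all (0.238% of distal regions), against 0.0417% of regions inside genes and 0.0278% of those over 100 kb away. In these 11 the fold enrichment ran from 6.52 to 32.1 in replicate 1 and from 3.14 to 49.2 in replicate 2, and 10 of the 11 were strong. These genes have near-identical copies, and the sources used here do not give how reads that match several copies were placed, so the share of each copy is uncertain.

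The third-ranked region was the longest of all, 11889 bp over most of MALAT1 (chr11:65496422-65508310), a long nuclear RNA abundant in many cells, with 44.5 in replicate 1 and 86.6 in replicate 2. Its summit lay 6.98 kb from MASCRNA, the small RNA cut from its end. The next longest were a region of 7023 bp near PCP4 (6.90 and 6.80) and one of 5355 bp near SMNDC1 (10.7 and 18.3). Their replicate summits lay 4553 bp and 1189 bp apart, so the values of the 2 replicates come from different places in each region.

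The other 8 of the 20 had no small RNA gene under them, though 3 of these 8 lay within a few kb of one. A second region near PARP16 (17.2 and 21.2) lay 4.10 kb from RNU5B-1, and a second near GRAP (12.1 and 25.6) lay 316 bp from SNORD3B-2. TEF, a clock-related transcription factor gene, had a region 14.5 kb beyond its far end (13.3 and 22.04). DDIT4, a stress-induced inhibitor of mTOR signalling, had one 21.6 kb beyond its far end (12.7 and 29.2). A region near PPIAL4F (21.3 and 20.4) lay 5.31 kb from RNVU1-2A. Another of the 8 lay over the pseudogene SLC7A5P2 (12.8 and 22.3).

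tRNA genes were covered by 34 distal regions (0.736%), against 0.0833% of regions inside genes and 0.0833% of those over 100 kb away. Most of these 34 were weak in replicate 1. Their fold enrichment had a median of 2.91 in replicate 1 and 4.50 in replicate 2, and 26 of the 34 were higher in replicate 2 (76.5%, against 58.5% of all distal regions). The strongest was over the isoleucine tRNA gene TRI-TAT2-1, 17.8 kb from HAAO (chr2:42809628-42811663, 7.75 and 21.5), followed by TRT-CGT4-1 near RAB11FIP4 (8.39 and 10.9). Only 4 of the 34 were strong (11.8%, against 20.6% of all distal regions). Other genes of small RNAs made by RNA polymerase III had single regions: VTRNA2-1, a vault RNA gene (3.41 and 13.3), RN7SL2, an RNA of the signal recognition particle (4.13 and 8.73), RNY5 (5.12 and 8.50) and RNY3 (2.56 and 2.89).

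**Figure D3:**
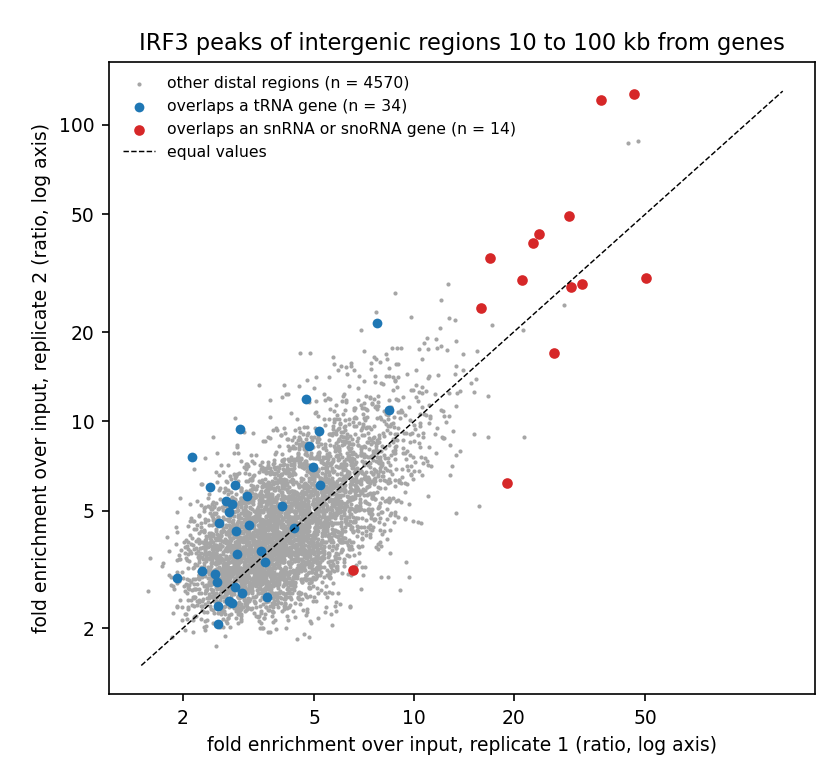
Fold enrichment over input of the 4618 distal regions in replicate 1 and replicate 2, log axes, with the line of equal values dashed. Regions over snRNA or snoRNA genes (red, 14) lie mostly at the top right, and 26 of the 34 over tRNA genes (blue) lie above the line.

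Antigen receptor gene segments were covered by 24 distal regions, 13 in the immunoglobulin lambda locus (IGL) on chromosome 22, 8 in the T cell receptor gamma locus (TRG) on chromosome 7, 2 at beta segments and 1 at an alpha segment. They made up 0.52% of distal regions, against 0.361% (13 regions) of those over 100 kb away. These segments are not counted as protein-coding genes in the table, which is why regions among them count as distal. In contrast to the tRNA genes, 17 of the 24 were higher in replicate 1. The IGL regions had medians of 6.29 in replicate 1 and 4.94 in replicate 2, with the top at IGLV3-27 (chr22:22667525-22669470, 21.5 and 8.87). The TRG regions had medians of 5.47 and 5.34, led by TRGV4 (9.49 and 7.91). The lambda locus encodes an antibody light chain, while T cell receptor gamma is not a plasma cell product.

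Pseudogenes lay under 256 distal regions (5.54%), compared with 0.758% of regions inside genes and 2.36% of those over 100 kb away. Their medians were 4.26 and 4.69, little different from those of all distal regions. A non-coding gene or pseudogene of any kind lay under 1328 distal regions (28.8%), and the other 3290 (71.2%) overlapped none. The share of strong regions was 21.99% in the first set and 20.03% in the second. Any such gene lay under 30.9% of regions over 100 kb away and 10.99% of those inside genes. For lncRNA genes alone the shares were 22.4% of distal regions, 28.4% over 100 kb away and 9.98% inside genes.

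Distal regions were spread over many genes. A protein-coding gene was the nearest one of at least 1 distal region in 2800 of 20033 cases (14%), of at least 3 in 425 cases (2.12%) and of 6 or more in 51 cases. Those 51 genes accounted for 367 regions (7.95%). Genes with more distal regions more often had a shared region within 1 kb of an end as well. That share was 49.4% of the 17233 genes with 0 distal regions, 50.8% with 1, 58.9% with 2, 60.2% with 3 to 5 and 64.7% with 6 or more (exact 95% interval 50.1 to 77.6%), against 50% of all genes. The amount of intergenic DNA around a gene limits its count, since only 11830 genes (59.1%) were assigned any DNA at that distance as nearest to them. Of these 11830 genes, 23.6% were nearest to a distal region. Among the other 8203 genes 6 were nearest to one as well, so the assignment missed some genes. A count of 0 for a gene named below is to be read with this limit.

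Of all genes DUSP5, a phosphatase that switches off ERK in the nucleus, was nearest to the most, with 11 regions 17.5 to 87.8 kb away and 4 strong ones. The top region, of 4050 bp, lay 37.5 kb from it on the lower-coordinate side (chr10:110457802-110461851, 7.93 and 13.5), and 9 of the 11 lay on that side. RASGEF1B (a Ras-family exchange factor), IGLL5, RGS1, SNX19 and TNFAIP3 followed with 10 each. RASGEF1B had its strongest region at 90.4 kb before its start (11.004 and 13.999) and 9 of 10 on the start side. IGLL5, which lies in the immunoglobulin lambda locus, had 7 strong regions of 10, led by one 39.6 kb away (chr22:22935069-22936348, 13.3 and 14.5). RGS1, a regulator of G protein signalling in B cells, had 8 of 10 on its start side, and 8 of the 10 lay within lncRNA spans, led by one at 30.6 kb (6.78 and 8.31). All 10 near SNX19, a sorting nexin gene, lay on 1 side, the lower-coordinate one.

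TNFAIP3, which encodes the NF-kB inhibitor A20, had regions on both sides, from 28.6 to 97.95 kb away. Their fold enrichment ran from 2.22 to 7.48 in replicate 1 and from 2.31 to 6.19 in replicate 2, and 3 of 10 were strong. SYK, the kinase downstream of the B cell receptor, had 9 regions, 5 beyond its far end and 4 before its start, led by one 44.1 kb beyond it (10.4 and 8.17). ZNF217 had 9, of which 8 lay on the start side. ARRDC3 had 8, of which the strongest, at place 25 among all distal regions, lay 87.98 kb away (11.8 and 17.7). MYL12BP2 had 8, within 34.4 kb.

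**Figure D4:**
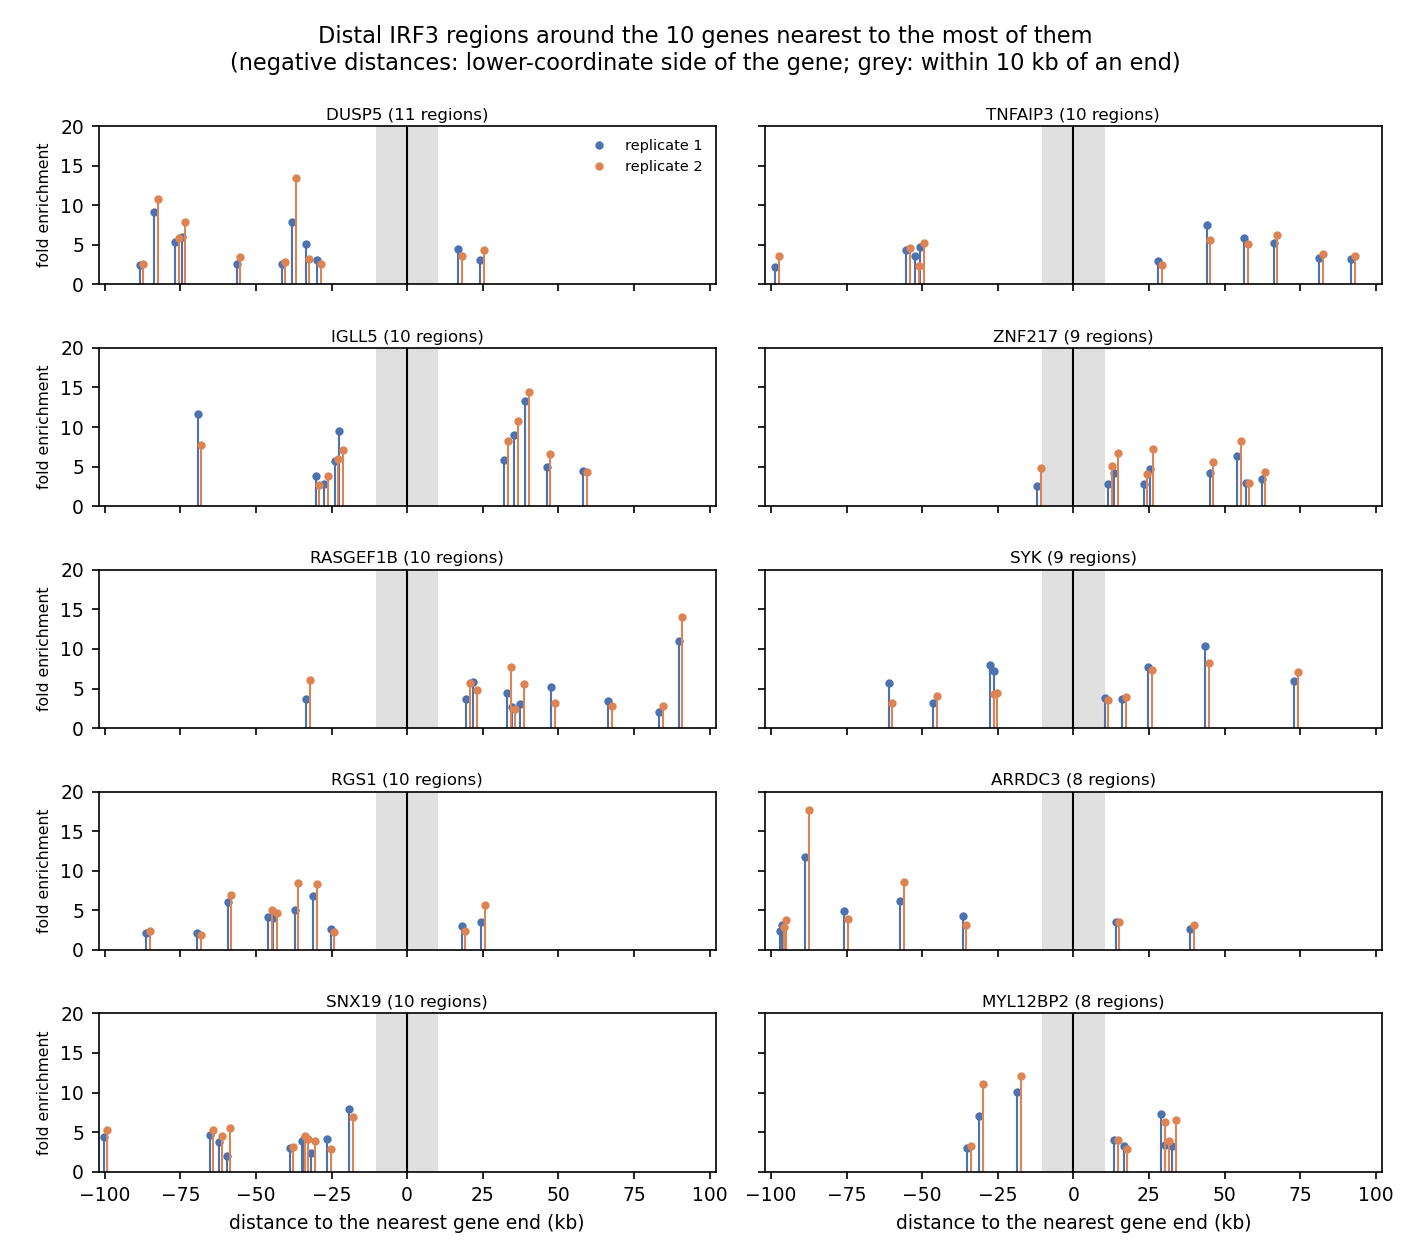
Fold enrichment (ratio) in replicate 1 (blue) and replicate 2 (orange) of the distal regions around the 10 protein-coding genes nearest to the most of them, by distance in kb from the nearest gene end, with the lower-coordinate side negative and the gene body drawn as a line at 0. All 10 regions near SNX19 and 9 of 11 near DUSP5 lie on the lower-coordinate side, while those of SYK and TNFAIP3 lie on both sides.

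Another distal region lay within 12500 bp of 1807 of them (39.1%), forming 735 clusters, while 2811 stood alone. Within their own class, 44.4% of regions inside genes and 30.6% of those over 100 kb away had such a neighbour. A neighbour of any class lay as near to 45.9% of distal regions and to 48.4% of all shared regions. Grouping was thus not particular to distal regions. There were 79 clusters of 4 or more, with 368 regions. Regions in these larger clusters were stronger and longer, with 29.3% strong (exact 95% interval 24.7 to 34.3%) against 21.6% in clusters of 2 or 3 and 18.9% (17.5 to 20.4%) of those alone. Median lengths were 800, 700 and 614 bp.

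The largest cluster had 9 regions in 43.1 kb near the chemokine receptor genes CCR2 and CCR3 (chr3:46278986-46322059), with fold enrichments of 2.76 to 7.87 in replicate 1 and 2.38 to 7.40 in replicate 2. The cluster of 8 between PRDM1 and ATG5 (chr6:106137853-106168126) ran from 2.47 to 7.66 and from 2.51 to 9.15. A further 8 lay in the TRG locus. TENT5C, a poly(A) polymerase gene often mutated in myeloma, had 7 beyond its far end (chr1:117644263-117686919), from 3.32 to 10.1 in replicate 1 and from 3.53 to 14.9 in replicate 2. A cluster of 7 lay near SLC22A5, on the IRF1 side of that gene. XBP1 had 6 before its start in 18.1 kb (chr22:28811637-28829736), from 2.51 to 8.503 and from 3.18 to 7.72.

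Genes of plasma cells and myeloma were often nearest to a distal region. Of the 38 on the list, 20 were (52.6%, exact 95% interval 35.8 to 69.0%), against 14% of all protein-coding genes, and together they were nearest to 53 regions. Of the 28 list genes with any DNA at that distance nearest to them, 71.4% were, against 23.6% of all such genes. The density around the list genes was 28.6 regions per Mb, against 7.69 over all genes. Over all genes the density also differed with the amount of such DNA around a gene. It was 10.1 per Mb for genes with up to 50 kb, 7.95 with 50 to 100 kb and 5.80 with 150 kb or more. The 20 included TENT5C (7 regions), CD28, DUSP22 and XBP1 (6 each), PRDM1 (4), SLAMF7, CD27, SDC1, IKZF1, CXCR4, ELL2, FCRL5 and IL6ST (2 each), and CCND1, CCND2, MAF, IRF4, MYC and TXNDC5 (1 each). Of their 53 regions, 16 were strong (30.2%, against 20.6% of all distal regions). The lists were compiled with earlier results on these peaks known, so these counts are no independent evidence.

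TENT5C had the strongest regions of the list, at 26.1 kb (chr1:117653765-117657317, 10.1 and 14.9) and 30.6 kb (6.91 and 11.3) beyond its far end. PRDM1, the master factor of plasma cell differentiation, had its 4 nearest regions 28.4 to 36.9 kb beyond its far end, with 7.28 and 9.15, 5.55 and 8.63, 3.61 and 4.94, and 2.47 and 2.69 in replicates 1 and 2. A further 4 within 100 kb of it were nearer to ATG5. XBP1, the driver of the secretory programme, had its strongest region 19.1 kb before its start (chr22:28817993-28820386, 8.503 and 7.72). IRF4 had 1 region, 23.5 kb beyond its far end (chr6:434588-435190, 4.75 and 4.30). MYC had 1 at 40.5 kb (3.52 and 4.48), MAF 1 at 27.9 kb before its start (4.94 and 5.40), and CCND2, a cyclin gene, 1 at 27.9 kb (4.20 and 6.01). The single regions of IRF4, MYC, MAF and CCND2 thus lay within the quartiles of distal regions in both replicates, except that of CCND2 in replicate 2, which lay just above them.

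B cell genes had a similar share, 12 of 25 (48.0%, exact 95% interval 27.8 to 68.7%), with 26 regions and 22.1 per Mb. Of the 20 list genes with any DNA at that distance nearest to them, 60% were nearest to a distal region. The chemokine receptor gene CXCR5 was nearest to 5, with the strongest 13.8 kb (chr11:118868093-118871407, 8.43 and 15.2) and 11.4 kb before its start (8.14 and 10.8). MEF2C, a transcription factor gene of B cells and muscle, had 4, with the strongest at 42.4 kb (chr5:88674100-88676876, 9.82 and 22.5) within the lncRNA genes MIR9-2HG and MEF2C-AS2. The replicate summits of that region lay 1205 bp apart. The germinal centre factor gene BCL6 was nearest to 0, with 1 region 73.0 kb away that was nearer to SST (4.18 and 5.58). POU2AF1 was nearest to 0, though BCL6 and POU2AF1 each had a shared region within 1 kb of an end.

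Interferon-stimulated genes, the classical outputs of the IRF3 pathway, were nearest to distal regions about as often as genes at large. Of 65, 9 were (13.8%, exact 95% interval 6.53 to 24.7%, against 14% of all genes). Of the 36 with any DNA at that distance nearest to them, 25% were, against 23.6% of all such genes. The list genes were nearest to 10 regions, 1 of them strong, with 8.37 regions per Mb against 7.69. The strongest were near ZBP1 (chr20:57633947-57634449, 6.83 and 5.08), a sensor of left-handed nucleic acid, IFITM3 (4.56 and 4.38), a restriction factor in membranes, and SAMD9L (3.50 and 4.94). CXCL10, IFIT1 and ISG15 were nearest to 0 and had 0 within 100 kb, though IFIT1 and ISG15 had a shared region within 1 kb of an end.

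Interferon and chemokine genes gave 10 of 30 (33.3%, exact 95% interval 17.3 to 52.8%, against 14% of all genes), with 19 regions and 15.3 per Mb. IFNB1, the gene for interferon beta, had 2 moderate ones, 15.7 kb beyond its far end (chr9:21061110-21061574, 4.83 and 3.68) and 18.6 kb before its start (chr9:21096155-21096829, 3.44 and 4.03), and no shared region within 1 kb of an end. IL6, a growth factor of myeloma cells, was nearest to 5 and IL12A to 3, with the strongest at IL12A 16.2 kb beyond its far end (5.67 and 6.29). The list of nucleic-acid sensing genes gave 4 of 35 (11.4%, exact 95% interval 3.20 to 26.7%, which includes the 14% of all genes), namely TANK, TLR4, TLR3 and ZBP1. Not every gene on it is itself a sensor of nucleic acid, and TANK and TLR4 are not. Of the 35, 18 had any DNA at that distance nearest to them, and 22.2% of these were nearest to a distal region. The adaptor gene STING1 was nearest to 0.

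Within the IRF family, 3 of 9 genes (33.3%, exact 95% interval 7.49 to 70.1%, against 14% of all genes) were nearest to distal regions, which were 6 for IRF1, 2 for IRF2 and 1 for IRF4, while IRF8 had 0. IRF1, an interferon-induced activator, had 15 distal regions within 100 kb. Its strongest lay 17.1 kb beyond its far end within the lncRNA gene CARINH (chr5:132463697-132465130, 10.3 and 12.6), followed by regions of the same lncRNA at 14.9 kb (8.82 and 6.91) and 24.8 kb (4.76 and 8.98). Of its other 3 regions, 2 lay before its start and were weak, with 2.74 and 2.86 at 10.5 kb and 2.33 and 3.09 at 15.4 kb.

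Of NF-kB pathway genes 6 of 22 were nearest to a distal region (27.3%, exact 95% interval 10.7 to 50.2%, against 14% of all genes), with 19 regions, 10 of them near TNFAIP3 and 4 near NFKBIZ. Unfolded protein response genes gave 7 of 33 (21.2%, 8.98 to 38.9%), with 17 regions, 6 near XBP1 and 4 near SEC61B, a subunit of the channel into the endoplasmic reticulum, whose strongest lay 23.3 kb beyond its far end (5.69 and 16.5). AP-1, ETS and KLF factor genes gave 11 of 30 (36.7%, 19.9 to 56.1%), with ETS1 nearest to 5 and a region 23.4 kb from it at 9.72 and 9.08. MHC genes gave 7 of 23 (30.4%, 13.2 to 52.9%), with a region 23.05 kb from CIITA, the master activator of class II genes (8.19 and 8.15). Apoptosis genes gave 6 of 32 (18.8%, 7.21 to 36.4%), and MCL1 had 0, though it had a shared region within 1 kb of an end. Of these 5 lists, the interval of the AP-1, ETS and KLF list alone lay above 14%. Its genes with any DNA at that distance nearest to them had a median of 81.7 kb of it, against 31.2 kb over all such genes. Of these 23 list genes, 47.8% were nearest to a distal region. Among all genes with 50 to 100 kb of such DNA, 36.4% were nearest to one. The density around the list genes was 13.2 regions per Mb. That of the other lists was 25.6 (unfolded protein response), 25.5 (NF-kB), 15.7 (MHC) and 9.89 (apoptosis).

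**Figure D5:**
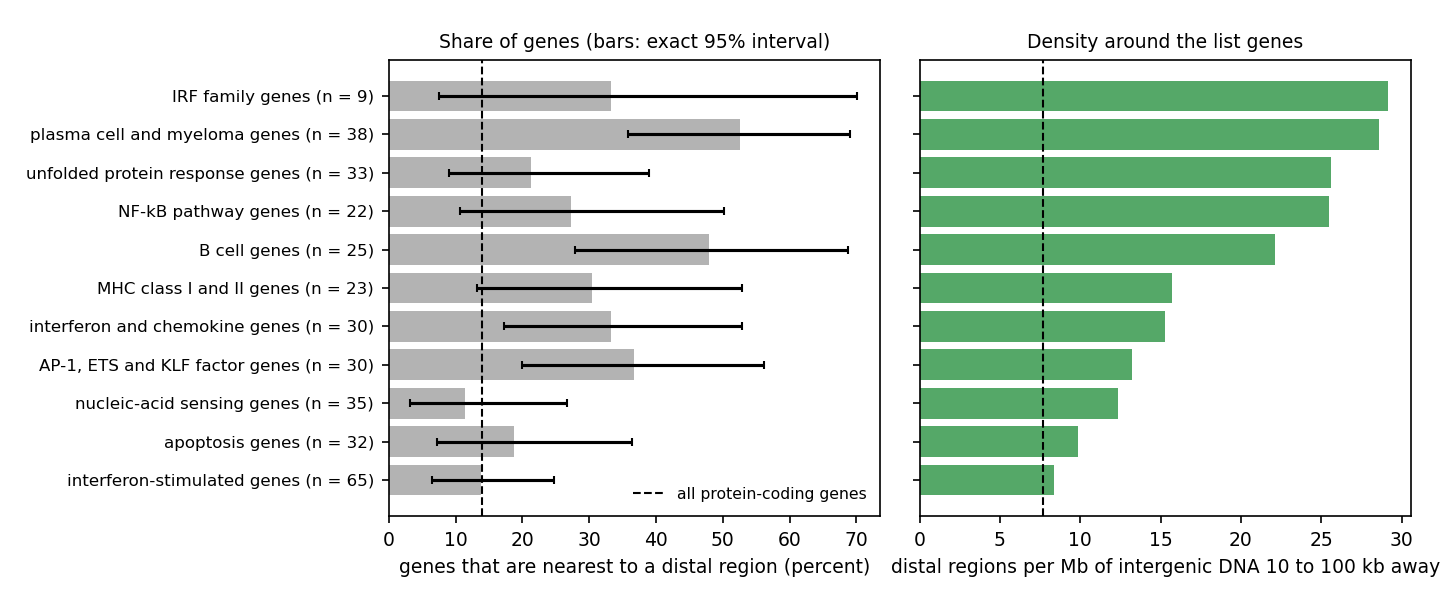
Left, percent of the genes of each list that are the nearest protein-coding gene of at least 1 distal region, with exact 95% intervals that cover counting error only; right, distal regions per Mb of intergenic DNA at that distance around the list genes. Dashed lines mark all protein-coding genes (14% and 7.69 per Mb), which the plasma cell list exceeds (52.6% and 28.6 per Mb) and the interferon-stimulated list does not exceed in share (13.8%).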

How the data were processed

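IRF3 ChIP-seq peak lists of the 2 ChIP replicates were analysed. The 2 input libraries served only as the background of the peak calls. Per the file headers, the authors called peaks with MACS2 2.1.2 in each replicate against its own input, with a q-value cutoff of 0.05 and duplicate tags kept (the submitters' processing notes name GRCh38 and, among other tools, BWA 0.7.15 and MACS2 2.1.1). Headers give 38568845 and 46474586 ChIP tags and 58025919 and 60348415 input tags, for 41880 and 41666 peaks. The deposited fold enrichment is the authors' ratio of ChIP pileup to local input background at the summit. The deposited pileup, a signal that counts the fragments stacked at a summit, is printed only for the SNORD3 copies. The deposited −log10 q was used in an alternative.

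In Python 3.11.15 (pandas 2.3.3), peaks sharing 1 bp or more were merged across replicates, and regions with a peak from each were kept. The strongest peak of each replicate gave the value. Genes, their types and spans came from RefSeq on GRCh38.p14 (20033 protein-coding and 18303 lncRNA genes). Strand was taken from RefSeq start windows, which covered 79.1% of protein-coding genes. Nearest gene means the protein-coding gene with the nearest end and not a target. Densities divide by all DNA at that distance outside protein-coding genes, unmappable DNA and lncRNA ends included, and were added after the data were seen. Intervals are exact Clopper-Pearson (scipy 1.17.1) and cover counting error only. No test was run, since the peaks that chose the regions also give their values.

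The regions, the 11 gene lists (322 genes, all matched) and the rules for named regions were chosen with earlier results of these data known. Named regions are the 20 highest-ranked, the best 3 of each list, those of the 10 genes with the most, the 3 longest, those at the distance limits, the best on each kind of non-coding gene and those of 16 genes named in advance. Other names were chosen after their values were seen. Scripts were tested on simulated peaks. A search for motifs in the regions themselves needs a genome sequence and was not run. A few items that these rules name are not reported here.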

Additional observations from a re-analysis of the deposited data

How the results depend on the processing

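No paired analysis was possible because the results come from no test and each list was already called against the input of the same number. The values were recomputed under 11 alternatives, and 105 of 139 values stayed within 1.5 times (counts), the interval (shares, distances and offsets) or the SD of the replicate medians (fold enrichment and length), and 34 did not. With only peaks of fold enrichment 5 or more, there were 951 distal regions, 9.83% of shared regions, with median fold enrichments of 6.67 and 7.20, and 10 plasma cell, 4 B cell and 1 interferon-stimulated gene were nearest to one, as were 3.88% of all protein-coding genes (778). With only peaks of −log10 q of 10 or more, the values were 2522, 12.4%, 4.91 and 5.43, with 5 interferon-stimulated genes and 8.75% of all genes. Without the lncRNA condition the share was 15.7%, and outside all lncRNA spans it was 11.1%. Each of these settings removes or adds regions by construction. Using 1 replicate alone gave 6169 to 6316 regions, 14.8 to 15.1% of the regions of that list, and medians of 3.70 in replicate 1 and 3.86 in replicate 2. The plasma cell count was then 20 to 21, the B cell count 13 in both cases and the interferon-stimulated count 11 to 12. Joining peaks only at 50% overlap, the summit of either replicate, genes without LOC symbols and autosomes alone changed none of the 13 values beyond those limits. The alternative window for motifs was not run. With 2 replicates, no spread between cultures can be given.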
